A study of Homo sapiens with 6 samples.

Results

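The genes of the integrin and laminin chains were followed in UE7T-9 cells, a human mesenchymal stem cell (MSC) line from bone marrow, with and without SRRM4 knockout. They were chosen by symbol, as the protein-coding genes named for an integrin α or β chain (ITGA, ITGB) or for a laminin α, β or γ chain (LAMA, LAMB, LAMC). This rule took 38 of the 58735 genes in the count table. Of these, 26 were integrin genes, with 18 α and 8 β chains, and 12 were laminin genes, with 5 α, 4 β and 3 γ chains. The study asked which genes keep an MSC line from entering decellularized bone, and RNA-seq compared 3 control libraries of UE7T-9 cells given as WT with 3 libraries of the UE7T-9 SRRM4 KO line. SRRM4 is a splicing regulator best known from neurons. The KO line was made with a lentiviral CRISPR v2 vector and is 1 clone from dilution cloning, so the knockout and any other property of that clone cannot be told apart. The study describes this knockout as incomplete, with SRRM4 protein still present, so the line is not a full knockout. Both groups were kept in DMEM. No source used here says whether the libraries of a group came from separate cultures, so the p-values measure only the spread between libraries, which may be technical.

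Integrins are cell surface receptors made of an α chain and a β chain, and they tie the matrix outside the cell to actin inside it. The α chain largely sets the ligand: some α chains bind laminins, some bind collagens, and others bind proteins with an RGD motif such as fibronectin, vitronectin and osteopontin. Laminins are trimers of an α, a β and a γ chain and are the main cell-binding proteins of basement membranes. Mesenchymal cells are known for collagen- and fibronectin-binding integrins, while some β chains belong mainly to leukocytes or to epithelia.

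The libraries held between 21496117 and 23868323 counts, so a count of 0 allows up to 3 counts, or 0.123 to 0.139 CPM (read count scaled to library size). Such limits cover counting error alone. SRRM4 itself had 0 counts in each of the 6 libraries, so the targeted gene could not check the labels. Control replicate 1 stood apart: 22403 genes had a count there, against 20127 to 20674 in the other libraries. Calls of the chains that changed without it are given with both values. Of the MSC surface markers, NT5E (CD73) was at 342 CPM in control and 490 CPM in the KO libraries, ENG (CD105) at 246 and 194 CPM, and THY1 (CD90) at 144 and 26.7 CPM. PDGFRB, a receptor of mesenchymal cells, went from 692 to 157 CPM. VIM, the mesenchymal intermediate filament, was at 874 and 1122 CPM. Of the list of 6 mesenchymal markers, 4 fell at an edgeR adjusted p under 0.05, as 20.9% of all genes tested did, with THY1 (log2 fold change -2.43), PDGFRB (-2.14) and COL1A1 (-1.23) called lower, as 7.14% of all genes tested were, and 2 rose without being called, NT5E (0.52) and VIM (0.36). The part of these changes in the results below was not tested.

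Of the 38 genes, 31 had enough counts to be tested, 20 integrin and 11 laminin genes, in a fit over 15341 genes with edgeR's quasi-likelihood test and Benjamini-Hochberg adjustment. A gene was called when its adjusted p was under 0.05 and its log2 fold change, KO minus control, lay beyond 1 in either direction. The words rose and fell are used for an adjusted p under 0.05. Called higher were 4 genes, ITGA3, ITGB3, ITGA2 and ITGA10, and called lower were 6, ITGA11, ITGA7, ITGA8, LAMA2, LAMA4 and LAMB4. Of these, ITGA8 and LAMB4 passed the count filter only through control, where they were higher, so their calls could only be lower. Over all genes tested, 5.45% were called higher, 7.14% lower and 12.6% either way. Tested against the fold threshold itself (edgeR's glmTreat), ITGB3, ITGA11, ITGA7, ITGA8 and LAMA4 were called, and ITGA3, ITGA2, ITGA10, LAMA2 and LAMB4 were not. By adjusted p alone 10 of the 31 rose and 16 fell, where 20.7% of all genes tested rose, 20.9% fell and 41.6% did either. In 25 of the 31 the libraries of the groups did not overlap, as in 51.8% of all genes tested. The median log2 fold change was 0.16 for the integrin genes and -0.51 for the laminin genes, beside -0.01 for all genes tested.

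**Figure D1:**
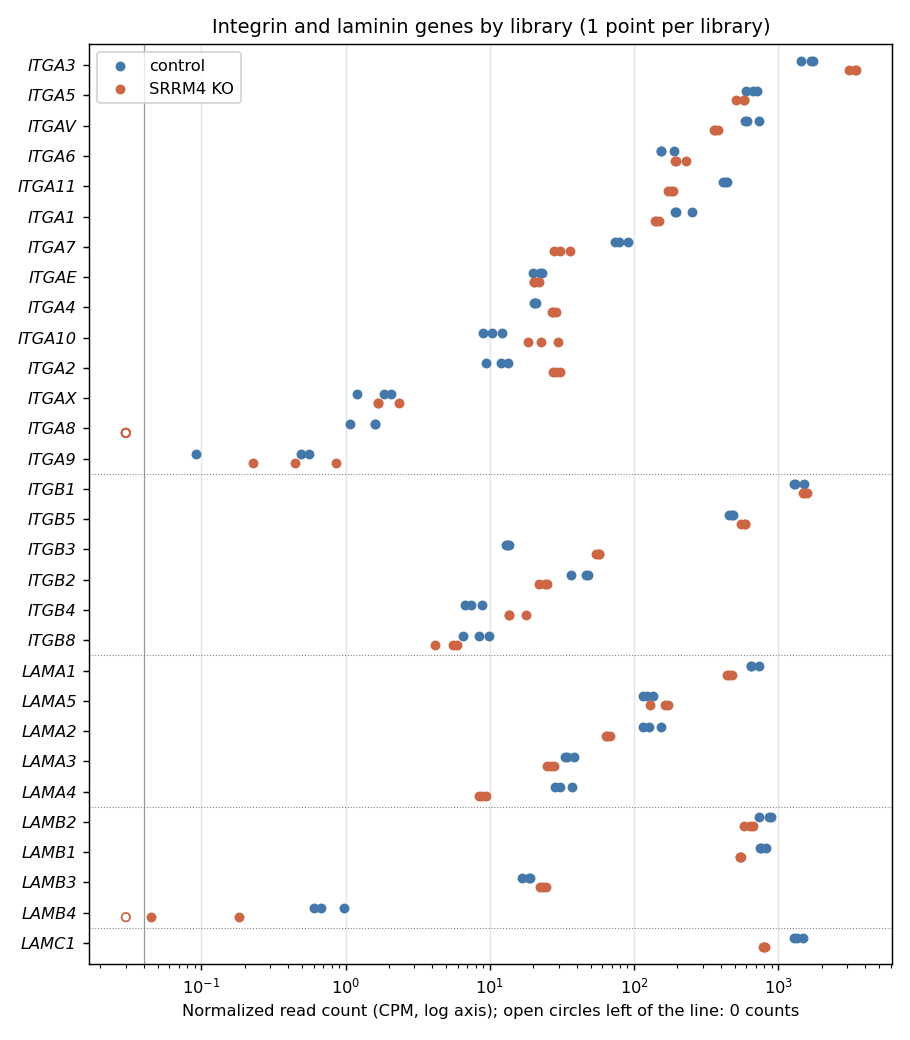
Normalized read counts (CPM, log axis) of tested integrin and laminin genes, with 1 point per library, in blue for control and in orange for SRRM4 KO; open circles are libraries with 0 counts and dotted lines separate the ITGA, ITGB, LAMA, LAMB and LAMC genes. The points of the groups lie apart for ITGB3 and LAMA4 and cover the same range for ITGAE and ITGAX.

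Among the laminin-binding α chains, ITGA3 rose and ITGA7 fell. ITGA3 (chromosome 17, 50055968 to 50090481, plus strand, GRCh38), which pairs with ITGB1 to bind laminins, was at 1438, 1700 and 1728 CPM in control replicates 1 to 3 and at 3456, 3420 and 3094 CPM in the KO libraries. Every KO library was above every control library. The log2 fold change was 1.03 (standard error 0.076, edgeR adjusted p = 4.33e-08), a 2.05-fold rise that lay just past the threshold. It was 0.95 without control replicate 1, and no longer called. ITGA7 (chromosome 12, 55684568 to 55716043, minus strand), a laminin receptor best known from muscle, was at 74.2, 79.2 and 90.3 CPM in control and at 30.7, 36.0 and 27.9 CPM in the KO libraries. The groups did not overlap, and the fall was 2.57-fold (log2 fold change -1.36, standard error 0.11, edgeR adjusted p = 1.88e-07). ITGA6, which pairs with ITGB1 or ITGB4, rose from 190, 154 and 154 CPM to 197, 192 and 229 CPM without reaching the fold threshold (log2 fold change 0.31, edgeR adjusted p = 0.0219). It did not pass when control replicate 2, control replicate 3 or KO replicate 3 was left out, with an edgeR adjusted p of at most 0.131. In these libraries ITGA6 was thus the least changed of the 3 chains.

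To compare chains with each other, counts were divided by gene length and given as TPM, a scale on which all genes of a library sum to the same total. Gene length here is the sum of all annotated exons, so the order of genes with close values is uncertain. The laminin-binding α chains together went from 918 ± 38.7 to 1694 ± 61.7 TPM (SD, n = 3). ITGA3 made up 81.1% ± 2.51 of this level in control and 90.2% ± 1.18 in the KO libraries, ITGA6 made up 12.6% ± 2.54 and 8.43% ± 1.25, and ITGA7 made up 6.25% ± 0.345 and 1.32% ± 0.135. The share of ITGA6 was thus lower although its own count rose, over a larger sum. Each of these shares differed without overlap (exact two-sided permutation test, p = 0.10, the smallest value that 3 against 3 libraries allow). Of the summed level of all α chains, ITGA3 held 38.5% in control and 63.6% in the KO libraries. ITGA3 was thus the α chain of highest level per length in both groups.

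The collagen-binding α chains, all of which pair with ITGB1, moved in both directions. ITGA11 (chromosome 15, 68296533 to 68432162, minus strand), a receptor for fibrillar collagen in fibroblasts and MSCs, was at 412, 427 and 443 CPM in control and at 186, 180 and 171 CPM in the KO libraries. The fall was 2.38-fold, with no overlap (log2 fold change -1.25, standard error 0.076, edgeR adjusted p = 5.74e-09). ITGA1, a receptor with a preference for basement membrane collagen, also fell, from 254, 192 and 196 CPM to 143, 140 and 150 CPM (log2 fold change -0.57, edgeR adjusted p = 0.000392). ITGA2 (chromosome 5, 52989326 to 53094779, plus strand), the collagen receptor of platelets and epithelia, was at 13.4, 11.9 and 9.41 CPM in control and at 27.4, 28.8 and 30.8 CPM in the KO libraries. All KO libraries were higher, by 2.51-fold in the mean (log2 fold change 1.33, standard error 0.14, edgeR adjusted p = 2.49e-06). ITGA10 (chromosome 1, 145891208 to 145910189, minus strand), a collagen receptor of cartilage, was at 9.04, 12.2 and 10.3 CPM in control and at 22.5, 29.6 and 18.3 CPM in the KO libraries. It rose by 2.23-fold (log2 fold change 1.16, standard error 0.18, edgeR adjusted p = 8.37e-05), and by 0.95 on the log2 scale, not called, without KO replicate 2. The chains that rose were thus those of low level, and those that fell were the abundant ones.

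Per length the collagen-binding class went from 244 ± 10.4 to 143 ± 2.71 TPM (SD, n = 3). ITGA11 held 69.3%, 74.0% and 75.3% of this level in the control libraries and 53.7%, 51.1% and 51.4% in the KO libraries, a mean difference of -20.8 percentage points. ITGA2 went from 2.71% ± 0.460 to 11.6% ± 0.974 and ITGA10 from 3.09% ± 0.523 to 11.7% ± 2.52. For these 3 chains the shares did not overlap between groups (exact two-sided permutation test, p = 0.10, the smallest possible). The share of ITGA1, 21.4% ± 3.17 in control and 24.6% ± 1.60 in the KO libraries, overlapped (exact two-sided permutation p = 0.30). ITGA11 thus remained the leading chain of the class in both groups, over a smaller sum.

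**Figure D2:**
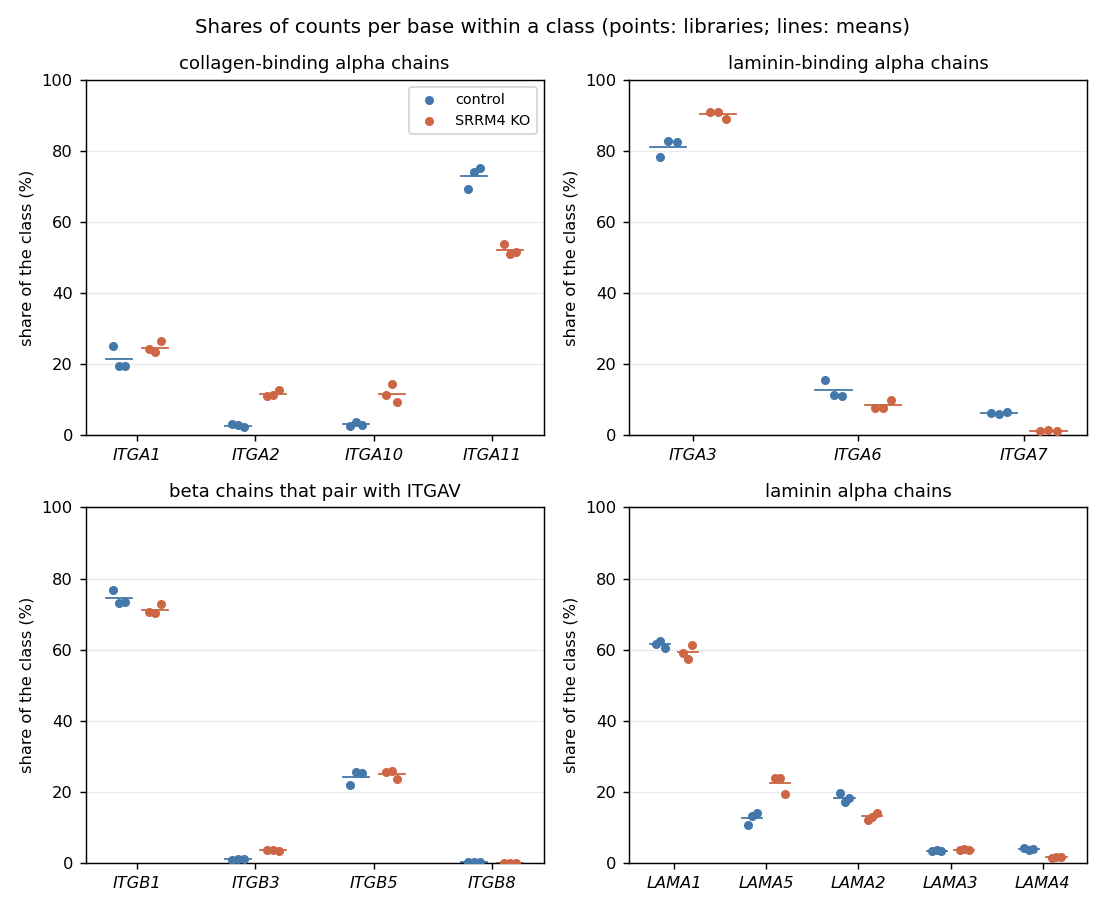
Share of the summed level per length (%, vertical axes) held by each chain within 4 classes, with 1 point per library and a line at the mean, in blue for control and in orange for SRRM4 KO. ITGA11 fell from 72.8% to 52.1% of the collagen-binding α chains, ITGB3 went from 0.997% to 3.61% of the β chains that pair with ITGAV, and LAMA5 from 12.7% to 22.4% of the laminin α chains.

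The promoters of the 4 collagen-binding α chains are shown because these chains share a β partner and a ligand yet went in opposite directions. Each is the 250 bases before and 50 bases after the RefSeq start (GRCh38.p14), read 5′ to 3′ on the strand of the gene. They are ITGA11 at chr15:68432114-68432413, minus strand, ITGA1 at chr5:52787666-52787965, plus strand, ITGA10 at chr1:145910001-145910300, minus strand, and ITGA2 at chr5:52989102-52989401, plus strand. Capitals mark the GC box (letters GGGCGG), the box spelled by its name CCAAT and the TEAD motif (letters GGAATG), each searched on both strands.
ITGA11: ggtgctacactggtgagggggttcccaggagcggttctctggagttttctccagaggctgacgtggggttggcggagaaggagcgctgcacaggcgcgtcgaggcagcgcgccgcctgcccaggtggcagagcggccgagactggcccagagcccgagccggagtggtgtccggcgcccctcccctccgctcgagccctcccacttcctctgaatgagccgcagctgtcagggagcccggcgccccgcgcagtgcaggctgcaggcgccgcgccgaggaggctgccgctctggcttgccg
ITGA1: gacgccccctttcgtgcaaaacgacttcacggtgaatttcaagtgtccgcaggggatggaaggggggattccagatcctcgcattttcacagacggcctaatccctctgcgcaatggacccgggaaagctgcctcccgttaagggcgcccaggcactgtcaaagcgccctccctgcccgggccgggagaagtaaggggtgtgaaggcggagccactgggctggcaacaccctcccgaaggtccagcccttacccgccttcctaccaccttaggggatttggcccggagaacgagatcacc
ITGA10: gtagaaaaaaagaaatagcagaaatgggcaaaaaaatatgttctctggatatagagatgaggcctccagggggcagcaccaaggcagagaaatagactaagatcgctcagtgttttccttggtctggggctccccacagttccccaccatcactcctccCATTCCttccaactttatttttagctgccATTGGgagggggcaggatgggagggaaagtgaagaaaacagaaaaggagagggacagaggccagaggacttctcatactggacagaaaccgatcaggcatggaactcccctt
ITGA2: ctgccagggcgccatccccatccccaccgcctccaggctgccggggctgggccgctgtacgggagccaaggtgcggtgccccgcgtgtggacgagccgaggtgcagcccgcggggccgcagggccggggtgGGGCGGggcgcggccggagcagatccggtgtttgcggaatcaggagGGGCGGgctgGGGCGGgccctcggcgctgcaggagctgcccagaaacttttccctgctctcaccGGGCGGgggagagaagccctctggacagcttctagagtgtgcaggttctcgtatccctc

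The promoter of ITGA2 held 4 GC boxes and that of ITGA10 held 1 CCAAT box and 1 TEAD motif, both read on the opposite strand. The promoters of ITGA11 and ITGA1 held none of the 6 motifs searched, which also included a TATA box (TATAAA), an AP-1 motif (TGANTCA) and a RUNX motif (TGTGGT). The TEAD and CCAAT matches did not overlap. Over 35116 RefSeq promoters of the same length, 45.0% held a GC box, 34.6% a CCAAT box and 14.0% a TEAD motif. The ITGA10 promoter was the poorest of the 4 in G and C, at 48.7%, with 2 CpG sites, while ITGA11, ITGA2 and ITGA1 were at 72.0%, 72.7% and 61.7% and held 29, 27 and 19 CpG sites. The median of all promoters was 58.7%. The RefSeq start of ITGA10 lay 139 bases from its GENCODE start, and the other 3 lay within 26 bases. Of the 38 genes, 26 had a promoter in the table.

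Of the RGD-binding α chains with enough counts, 3 of 3 fell and 1 of them was called, where 20.9% of all genes tested fell and 7.14% were called lower. ITGAV, the chain of the vitronectin receptors, went from 740, 590 and 607 CPM to 362, 360 and 384 CPM, a 1.75-fold fall without overlap (log2 fold change -0.81, standard error 0.088, edgeR adjusted p = 2.88e-06). The other 7 tested genes within 2 Mb of ITGAV had a median of -0.64. With the median of its chromosome taken off, ITGAV was at -0.56. The part of the region in this fall was not tested. ITGA5, which forms the classical fibronectin receptor with ITGB1, went from 602, 712 and 664 CPM to 583, 575 and 510 CPM (log2 fold change -0.25, edgeR adjusted p = 0.0242). For ITGA5 this did not pass when control replicate 2, control replicate 3, KO replicate 2 or KO replicate 3 was left out, with an edgeR adjusted p of at most 0.123. ITGA8 (chromosome 10, 15513949 to 15720125, minus strand), a receptor for nephronectin and osteopontin, was counted 35, 23 and 36 times in control and never in a KO library. Against 3 counts per KO library it was at least 10.9-fold lower (edgeR adjusted p = 3.79e-05). ITGA8 passed the count filter through control alone, so its call could only be lower. The summed level of this class went from 749 to 534 TPM, and ITGA5 took the larger share in the KO libraries, 62.0% ± 2.59 against 38.0% ± 2.57 for ITGAV. In control the shares of both chains were close, at 52.5% ± 5.12 and 47.3% ± 5.11.

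The other α chains were low. ITGA4, which binds VCAM1 and fibronectin, rose from 21.0, 20.3 and 20.6 CPM to 27.4, 27.2 and 28.8 CPM (log2 fold change 0.43, edgeR adjusted p = 0.00557). Its ligand VCAM1 was called lower, from 8.71 to 0.989 CPM (log2 fold change -3.13, edgeR adjusted p = 1.38e-07). ITGAE, ITGAX and ITGA9 did not pass the test, with log2 fold changes of -0.06, 0.15 and 0.44 and overlapping libraries. ITGAX and ITGA9 were at most 2.33 CPM in any library, so little could be detected there.

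**Figure D3:**
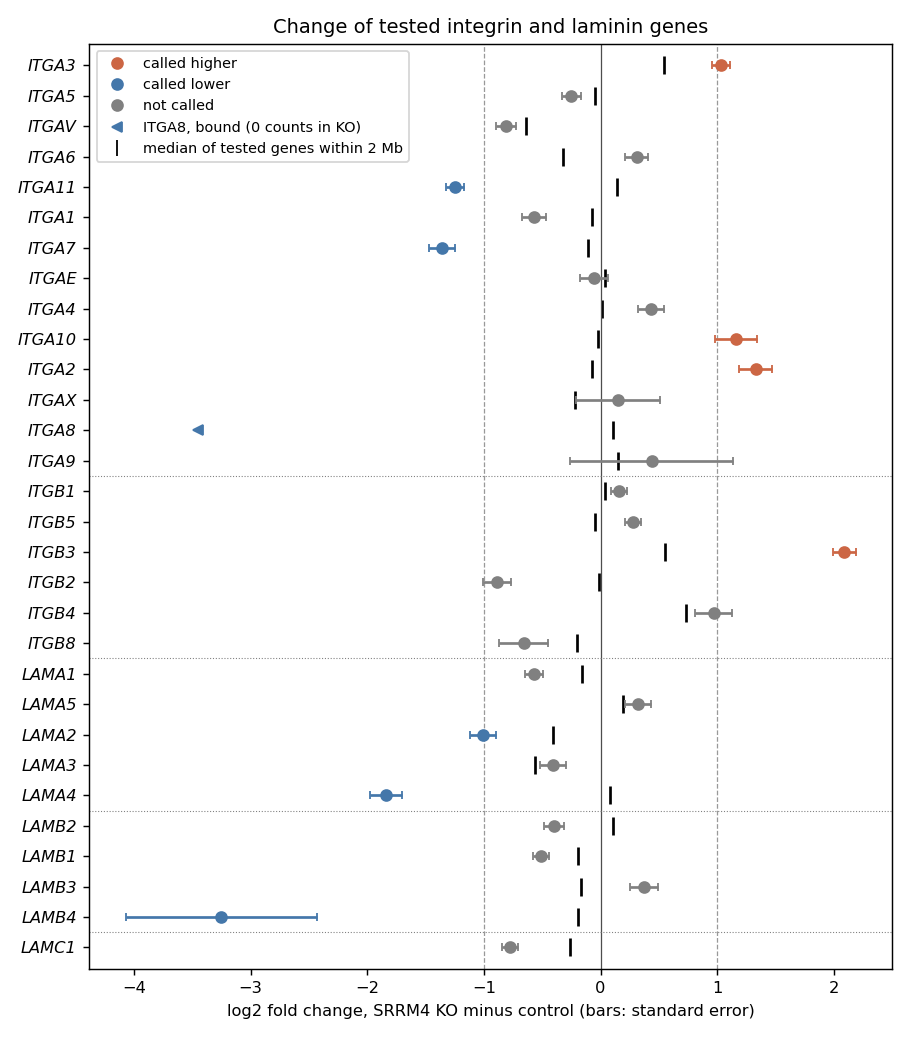
Log2 fold change of tested integrin and laminin genes (KO minus control, horizontal axis; bars are standard errors), orange where called higher, blue where called lower and grey otherwise, with a black tick at the median of the other tested genes within 2 Mb. ITGB3 lies highest at 2.09, ITGA8 is drawn at its bound of -3.45, and the ticks of ITGA3, ITGB3 and ITGB4 lie at 0.54, 0.55 and 0.73.

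Among the β chains, ITGB3 had the largest change. ITGB3 (chromosome 17, 47253846 to 47311816, plus strand), the partner of ITGAV in the vitronectin receptor, was counted 296, 280 and 295 times in control and 1277, 1398 and 1205 times in the KO libraries, or 13.7, 13.0 and 13.2 CPM against 57.3, 57.4 and 54.8 CPM. The groups lay far apart, and the rise was 4.25-fold (log2 fold change 2.09, standard error 0.10, edgeR adjusted p = 7.01e-10). Without any 1 library the log2 fold change stayed between 2.07 and 2.11. In GENCODE release 29, 51.6% of the exon bases of ITGB3 are shared with AC068234.1 on the same strand, which had 0 counts in every library. How reads in shared exons were counted is not given in the sources used here, so the level per length of ITGB3 is uncertain.

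ITGB1, the partner of most α chains in these cells, was at 1498, 1280 and 1306 CPM in control and 1503, 1494 and 1582 CPM in the KO libraries. The groups overlapped through control replicate 1, and the difference did not pass (log2 fold change 0.16, edgeR adjusted p = 0.0757). Without control replicate 1 it passed by adjusted p alone (0.24, edgeR adjusted p = 0.000364). ITGB5, an RGD-binding partner of ITGAV, rose from 459, 481 and 482 CPM to 585, 587 and 551 CPM (log2 fold change 0.28, edgeR adjusted p = 0.00462). ITGB8, the ITGAV partner known for activating TGF-β, fell from 8.44, 6.49 and 9.90 CPM to 4.17, 5.95 and 5.54 CPM (log2 fold change -0.66, edgeR adjusted p = 0.0174), and did not pass without control replicate 3 (edgeR adjusted p = 0.0928) or KO replicate 1 (0.0776). ITGAV partners thus differed from each other in direction.

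ITGB4, the hemidesmosome chain of epithelia that pairs with ITGA6, rose from 7.38, 6.77 and 8.83 CPM to 17.7, 13.5 and 13.7 CPM (log2 fold change 0.97, standard error 0.16, edgeR adjusted p = 0.000237). It lay just under the fold threshold and was called when control replicate 3 (1.08), KO replicate 2 (1.03) or KO replicate 3 (1.02) was left out. The epithelial markers EPCAM, CDH1, KRT8, KRT18, KRT5 and KRT14 summed to between 97.0 and 118 CPM in control and between 101 and 108 CPM in the KO libraries, with EPCAM at no more than 0.0928 CPM. ITGB2, the β chain of leukocyte integrins, fell from 36.7, 46.6 and 47.8 CPM to 24.9, 21.9 and 24.1 CPM (log2 fold change -0.89, standard error 0.12, edgeR adjusted p = 2.95e-05). Of the leukocyte markers, SPI1 and CD3E had 0 counts in every library and PTPRC was at no more than 0.0909 CPM, while the whole list of 8 markers summed to 48.2 to 56.6 CPM in control and 67.4 to 73.1 CPM in the KO libraries, mostly LCP1 and CD14. The sums were higher in the KO libraries through LCP1, which went from 33.6 to 54.4 CPM, while CD14 was at 16.8 and 15.9 CPM.

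ITGA3, ITGB3 and ITGB4 all lie on the distal part of chromosome 17, where other genes were higher too. From the start of ITGB3 to the chromosome end, the median of the other 361 tested genes was 0.62 on the log2 scale and 66 were called higher and 14 lower, whereas the 555 before it had a median of 0.01. Within 2 Mb, the median was 0.54 over 48 genes for ITGA3, 0.55 over 47 genes for ITGB3 and 0.73 over 63 genes for ITGB4. With the median of each chromosome taken off, ITGB3 was at 1.88, ITGA3 at 0.83 and ITGB4 at 0.76. ITGB3 thus remained far past the threshold on this scale and ITGA3 did not pass it. The median of the whole of chromosome 17 was 0.21, under that of its distal part, so this scale takes off less than the local medians. The part of the region in these changes was not tested. ITGA2 and ITGA10, the other genes called higher, had neighbours with medians of -0.07 and -0.02.

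Chains act in pairs, so the level per length of both chains was set side by side for 24 known heterodimers, of which 17 had both chains tested. The α chain was at the lower level in 13 of the 17 in control and in 13 in the KO libraries, but not in the same pairs. By group means the lower chain differed for ITGA3 with ITGB1 and for ITGAV with ITGB5, and for the second of these the chains were close in control. In 6 only the α chain was called, in 1, ITGAV with ITGB3, only the β chain, in 10 neither, and in 0 both. The summed level of the 12 α partners of ITGB1 was 1.89 ± 0.200 times that of ITGB1 in control and 2.09 ± 0.151 times in the KO libraries, and these ratios overlapped (exact two-sided permutation p = 0.30).

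In a few pairs the balance of the chains moved. ITGA3 was at 0.588, 0.814 and 0.812 times the level of ITGB1 in control and at 1.41, 1.40 and 1.20 times in the KO libraries, so that the α chain was the lower one in each control library and the β chain in each KO library. Which chain is the lower one depends on the gene lengths used. ITGB1 is also shared among 12 α partners, so these ratios do not show which chain limits the pair. ITGB3 was at 0.0345, 0.0412 and 0.0407 times the level of ITGAV in control and at 0.296, 0.298 and 0.267 times in the KO libraries, and remained the lower chain. ITGB5 was close to ITGAV in control, at 0.789, 1.04 and 1.01 times its level, and was at 2.06, 2.08 and 1.83 times in the KO libraries, so that only in control replicate 1 was ITGB5 the lower chain. Of the 5 β partners of ITGAV, ITGB1 held the largest share in both groups, 74.5% and 71.3%, followed by ITGB5 with 24.3% and 25.0%. The share of ITGB3 was 0.959%, 1.02% and 1.02% in control and reached 3.68%, 3.70% and 3.45% in the KO libraries (exact two-sided permutation test, p = 0.10, the smallest possible).

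**Figure D4:**
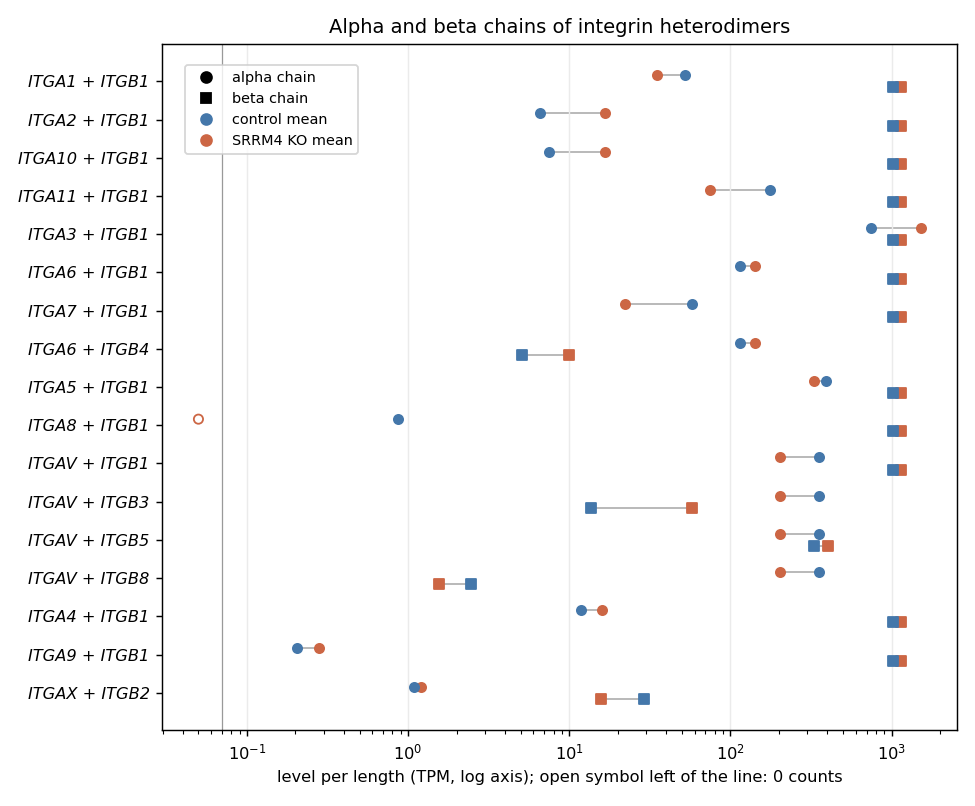
Mean level per length (TPM, log axis) of the α chain (circles) and β chain (squares) of the 17 heterodimers with both chains tested, in blue for control and in orange for SRRM4 KO; the open symbol is 0 counts. ITGB1 lies at 1025 and 1146 TPM, while ITGA3 goes from 746 to 1530 TPM and ITGB3 from 13.7 to 58.0 TPM.

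The laminin genes, ligands of part of these receptors, were mostly lower in the KO libraries. Of 11 tested, 8 fell and 2 rose, where 20.9% of all genes tested fell and 20.7% rose. With the fold threshold, edgeR and DESeq2 each called 0 higher and 3 lower, beside 5.45% and 7.14% of all genes tested by edgeR, and at an unadjusted p under 0.05 edgeR had 2 higher. The gene of the common γ chain, LAMC1, went from 1482, 1343 and 1287 CPM to 807, 802 and 785 CPM, a 1.72-fold fall without overlap (log2 fold change -0.78, standard error 0.069, edgeR adjusted p = 3.32e-07). LAMC1 held 99.6% of the γ chain level per length in control and 99.4% in the KO libraries, so the summed γ level fell with it, from 741 ± 75.2 to 431 ± 2.57 TPM.

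Of the β chains, LAMB1, the widespread one, fell from 825, 759 and 744 CPM to 543, 551 and 540 CPM (log2 fold change -0.51, edgeR adjusted p = 2.72e-05). LAMB2, the β chain of the synapse and the kidney filter, fell from 741, 860 and 887 CPM to 668, 638 and 578 CPM (log2 fold change -0.40, edgeR adjusted p = 0.00115). Per length LAMB2 was above LAMB1 in each library, at 1.06 to 1.42 times its level in control and 1.27 to 1.46 times in the KO libraries, and this ratio overlapped between groups. LAMB3, the β chain of epithelial laminin, rose from 16.8, 19.0 and 18.6 CPM to 23.3, 24.6 and 22.4 CPM (log2 fold change 0.37, edgeR adjusted p = 0.0224), and did not pass when KO replicate 1 (edgeR adjusted p = 0.0658) or KO replicate 2 (0.102) was left out. LAMB4 (chromosome 7, 108023548 to 108130356, minus strand) was counted 13, 21 and 15 times in control and 1, 0 and 4 times in the KO libraries. Its ratio of control to KO was 10.26 (exact Clopper-Pearson 95% interval 4.11 to 33.0, counting error only), with a log2 fold change of -3.25 and an edgeR adjusted p of 0.00490. Without KO replicate 3 it was at -4.81, so the size of the fall is poorly known at these counts.

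Among the laminin α chains, which carry the main sites for integrins, LAMA4 fell most. LAMA4 (chromosome 6, 112108760 to 112254939, minus strand), typical of vessels, fat and muscle, went from 36.9, 28.3 and 30.5 CPM to 8.39, 8.87 and 9.45 CPM. The groups were far apart, with a 3.58-fold fall (log2 fold change -1.84, standard error 0.14, edgeR adjusted p = 6.16e-08). LAMA2 (chromosome 6, 128883141 to 129516569, plus strand), the α chain of muscle and nerve basement membrane and a ligand of ITGA7 with ITGB1, went from 154, 115 and 128 CPM to 64.0, 64.9 and 68.1 CPM. This 2.02-fold fall was just past the threshold (log2 fold change -1.01, standard error 0.11, edgeR adjusted p = 1.78e-06) and was -0.89, not called, without control replicate 1. The other 7 tested genes within 2 Mb of LAMA2 had a median of -0.41. LAMA1, known from early embryos and kidney, fell from 738, 650 and 646 CPM to 476, 439 and 456 CPM (log2 fold change -0.57, edgeR adjusted p = 2.27e-05). LAMA3, of epithelial laminin, fell from 38.3, 34.3 and 33.1 CPM to 26.6, 27.7 and 25.1 CPM (log2 fold change -0.41, edgeR adjusted p = 0.00649), and the other 17 tested genes within 2 Mb of it had a median of -0.56. LAMA5, a ligand of ITGA3 and ITGA6 with ITGB1, was at 116, 124 and 135 CPM in control and 173, 165 and 130 CPM in the KO libraries (log2 fold change 0.32, edgeR adjusted p = 0.0230). It rose by this test although KO replicate 3 lay within the control range, and LAMA5 did not pass without control replicate 2, KO replicate 1 or KO replicate 2, with an edgeR adjusted p of at most 0.149.

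Per length LAMA1 was the leading laminin α chain, with 61.5% ± 1.09 of the class in control and 59.2% ± 1.86 in the KO libraries, and these shares overlapped (exact two-sided permutation p = 0.20). The class went from 314 ± 33.0 to 220 ± 7.47 TPM (SD, n = 3). LAMA5 went from 12.7% ± 1.71 to 22.4% ± 2.61, LAMA2 from 18.4% ± 1.43 to 13.1% ± 0.924 and LAMA4 from 3.96% ± 0.260 to 1.59% ± 0.156, each without overlap (exact two-sided permutation test, p = 0.10, the smallest possible). In the KO libraries LAMA5 was thus second to LAMA1, a place held by LAMA2 in control. Set beside their receptors, LAMA2 and ITGA7 both fell. Of the ligands of ITGA3, which rose, LAMA5 rose by adjusted p alone and LAMA3 fell by adjusted p alone.

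The remaining 7 genes, ITGAM, ITGA2B, ITGAD, ITGAL, ITGB6, ITGB7 and LAMC3, were too low to test, with at most 14 counts in any library. ITGAM, a chain of myeloid cells, was counted 5, 14 and 13 times in control and never after knockout, a level at least 3.71-fold lower against 3 counts per library. ITGAM was called lower when the filter on low counts was dropped (edgeR adjusted p = 0.00109). It was also called lower when control replicate 1 (edgeR adjusted p = 0.00107) or any 1 KO library was left out. In those fits ITGAM passed the filter only through control, where it was higher. Its call could then only be lower, so these fits add no support. ITGAD was not counted in control and 2, 12 and 4 times after knockout; KO replicate 2 held most of these counts, and no fold is given. Without the filter ITGAD was called higher (edgeR adjusted p = 0.0392). ITGA2B, the platelet partner of ITGB3, was counted 5, 10 and 6 times in control and 2, 0 and 5 times after knockout. The RGD receptor of platelets was thus hardly detectable in its α chain at this depth. The other 4 had 0 to 11 counts per library.

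The other matrix ligands of these receptors were lower on the whole. In a list of 43 collagens, RGD proteins and counter-receptors, 34 were tested, 15 called lower and 3 higher, with a median log2 fold change of -0.89, beside 7.14% called lower and 5.45% higher over all genes tested. COL1A1 (log2 fold change -1.23), COL1A2 (-1.70), COL3A1 (-1.48) and COL5A1 (-1.05), fibrillar collagens bound by ITGA11, were the most abundant genes called lower. COL5A1 was at -0.98 without KO replicate 3. FN1, the fibronectin bound by ITGA5 and ITGAV, fell from 10277, 8908 and 8895 CPM to 5062, 4626 and 4669 CPM, at a log2 fold change of -0.97 (edgeR adjusted p = 1.51e-08), just under the threshold. It passed the threshold without control replicate 2, as it did when control replicate 3 (-1.01) or KO replicate 1 (-1.01) was left out.

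The RGD ligands differed among themselves. VTN, the vitronectin bound by ITGAV with ITGB3 or ITGB5, fell from 3.85 to 0.196 CPM (log2 fold change -4.30, edgeR adjusted p = 1.58e-05), and was at -3.70 without KO replicate 2. VTN passed the count filter through control alone, so its call could only be lower. SPP1, the osteopontin bound by ITGAV with ITGB3, rose from 19.0 to 117 CPM (log2 fold change 2.62, edgeR adjusted p = 4.85e-11), and TNC, a tenascin with integrin sites, rose from 98.1 to 258 CPM (1.40, edgeR adjusted p = 7.74e-09). COL13A1, a membrane collagen, rose from 4.32 to 36.7 CPM (log2 fold change 3.08, edgeR adjusted p = 2.19e-09). Of these 2 ligands of ITGAV with ITGB3, SPP1 was thus called in the direction of ITGB3 and VTN in the opposite one. They do not stand for the whole list, in which 15 of 34 tested genes were called lower and 3 higher. POSTN (-3.65), L1CAM (-3.65), LTBP1 (-1.47) and FBLN5 (-1.15) were among those called lower.

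Of 17 genes for basement membrane proteins that join laminin networks, 16 were tested, with a median of -0.35. Called lower were 3, and called higher were 0 by edgeR and by DESeq2, with 1 higher at an unadjusted p under 0.05 by edgeR. Over all genes tested, 7.14% were called lower and 5.45% higher. The 3 lower genes were COL4A1, a main collagen of basement membranes (2026 to 715 CPM, log2 fold change -1.50), FBLN2 (13.4 to 0.180 CPM, -6.21) and COL15A1 (4.52 to 1.39 CPM, -1.69). FBLN2 was counted only 3, 1 and 8 times in the KO libraries and was at -7.21 without KO replicate 3, so the size of its fall is poorly known. FBLN2 passed the count filter through control alone, so its call could only be lower. NID1, which links laminin to the collagen network, fell from 467 to 368 CPM (log2 fold change -0.34, edgeR adjusted p = 0.000892), and HSPG2, the perlecan gene, from 960 to 536 CPM (-0.84, edgeR adjusted p = 3.53e-06). AGRN, which binds laminin through the γ chain, was at 988 and 1100 CPM (0.16, edgeR adjusted p = 0.197).

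Inside the cell, 38 of 42 genes for focal adhesion proteins were tested, with 2 called higher, 5 lower and a median of -0.22. The counts stand beside 5.45% called higher and 7.14% lower over all genes tested, so the count of higher genes was near that background. TLN1, the talin that activates integrins from inside, fell from 1169 to 648 CPM (log2 fold change -0.85, edgeR adjusted p = 1.96e-07), and FERMT2, the kindlin of most adherent cells, from 455 to 245 CPM (-0.89, edgeR adjusted p = 9.15e-07). TNS1 (-3.28), FBLIM1 (-1.38), LIMS2 (-1.18) and KANK1 (-1.10) were called lower, and LPXN, a paxillin relative, rose from 49.9 to 137 CPM (log2 fold change 1.45, edgeR adjusted p = 8.02e-09). FERMT1, the kindlin of epithelia, rose from 1.20 to 3.09 CPM (1.36, edgeR adjusted p = 0.00619). Of 12 tested genes for proteins that sit beside integrins in the membrane, 0 were called by edgeR and 0 by DESeq2. By adjusted p alone 3 rose and 4 fell, and at an unadjusted p under 0.05 edgeR had 4 higher and 5 lower. Over all genes tested, 20.7% rose and 20.9% fell by adjusted p, shares that these counts lie near. CD151, a tetraspanin partner of ITGA3, was at 316, 539 and 528 CPM in control and 507, 504 and 435 CPM in the KO libraries (log2 fold change 0.06, edgeR adjusted p = 0.764), with control replicate 1 apart.

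Of the 6 laminin receptors that are not integrins, SDC1, a syndecan, rose from 207 to 490 CPM (log2 fold change 1.24, edgeR adjusted p = 1.15e-07) and BCAM, which binds LAMA5, fell from 24.4 to 6.95 CPM (-1.81, edgeR adjusted p = 9.01e-07). DAG1, the dystroglycan that binds LAMA2, was at 416 and 417 CPM (0.00, edgeR adjusted p = 0.969). The endothelial markers TEK and KDR went from 13.7 to 0.994 CPM and from 9.42 to 3.11 CPM, with PECAM1 and CDH5 at no more than 0.135 CPM in any library. The list of 5 endothelial markers summed to 22.5 to 26.1 CPM in control and 4.43 to 5.86 CPM in the KO libraries, which moved with LAMA4, and its part in that fall was not tested.

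**Figure D5:**
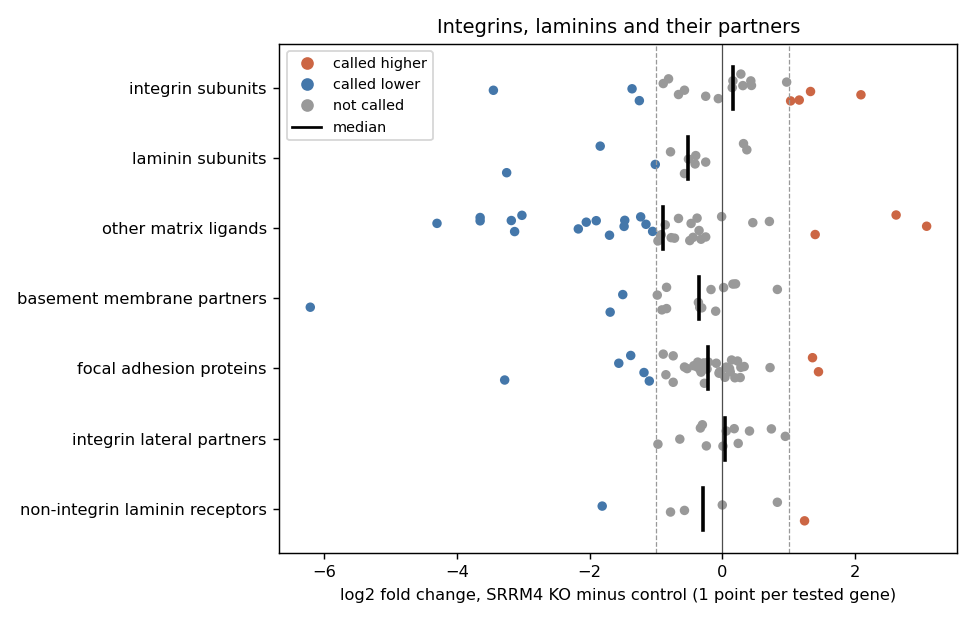
Log2 fold change (KO minus control, horizontal axis) of each tested gene in the integrin and laminin chains and in 5 lists of their ligands and partners, orange where called higher, blue where called lower and grey otherwise, with a black line at the median; ITGA8 is drawn at its bound. The medians run from -0.89 for the other matrix ligands to 0.16 for the integrin chains.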

How the data were processed

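RNA of 3 control and 3 SRRM4 KO libraries was measured by mRNA-seq, and samples were grouped by genotype and title. The authors deposited 1 table of whole-number read counts for all gene types, not normalized. Per the submitters' processing notes the tools were HISAT2 2.0.5, featureCounts 1.5.0-p3 and DESeq2. The genome build and the rule for reads that fit several genes are not given in the sources used here. All 58735 gene IDs and their start and end were found in GENCODE release 29 (GRCh38), so coordinates are given on that build.

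Counts were tested with edgeR 4.0.16 in R 4.3.3 (TMM normalization, filterByExpr with a minimum count of 10, quasi-likelihood test, Benjamini-Hochberg adjustment over 15341 genes). Depth was 21496117 to 23868323 counts per library. CPM used TMM-scaled library sizes, and TPM used the deposited gene lengths. Shares were compared by exact permutation tests with scipy 1.17.1. Promoters came from RefSeq (GRCh38.p14). Alternatives were DESeq2 1.42.0 and its size factors, upper-quartile scaling, a filter of at least 10 counts in every library and none, glmTreat, no fold threshold, a block for the replicate number, leaving out each library, protein-coding genes only, each chromosome centred and shares without length.

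The fit was tested on simulated data for control against KO, in which 200 of 15250 tested genes moved by 2 on the log2 scale: 184 were recovered by edgeR, with 3 false calls, and 182 by DESeq2, with 4. Most called chains changed by less than this, so the recovery of changes near the fold threshold was not tested. The chains, the lists of ligands and partners and the markers were chosen with earlier results of these data known. Values in every library are given for chains with an adjusted p under 0.05 and for the highest chain of each class. From each list at most 4 called genes per direction, by mean CPM, and 10 fixed genes were named. A few further called ligands were named beside ITGA4 and ITGAV. Of the chains and markers, 1 tested chain and 1 marker are not reported here by name.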

Additional observations from a re-analysis of the deposited data

How the results depend on the processing

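The chains called higher (4) and lower (6) kept within 1.5 times of these counts under both other normalizations, without a filter, with at least 10 counts in every library, with DESeq2 and among protein-coding genes. With at least 10 counts in every library 4 were called lower, because ITGA8 and LAMB4 could not enter the test. A test against the fold threshold itself (glmTreat) left 1 higher, ITGB3, and 4 lower. Without the fold threshold 10 rose and 16 fell. With each library left out in turn, 3 to 5 were called higher and 6 to 7 lower. The median log2 fold change of the chains, -0.25, ran from -0.40 to -0.19 with each library left out, lowest without KO replicate 1 and next without control replicate 1. Replicate numbers did not pair the libraries (correlations of same-numbered deviations from -0.055 to 0.083), and with the replicate number as a block 4 were higher and 6 lower. Without the fold threshold the lists gave 5 higher and 25 lower matrix ligands, 1 and 10 basement membrane genes, 6 and 19 focal adhesion genes, 3 and 4 lateral partners and 2 and 3 non-integrin laminin receptors. With glmTreat 1 focal adhesion gene was higher and 3 lower. With each library left out, 0 to 1 lateral partners were called in each direction. Values that did not pass the test changed sign with a library left out: ITGAX ran from -0.04 to 0.31, ITGA9 from -0.18 to 0.80, CD151 from -0.15 to 0.19 and DAG1 from -0.04 to 0.03. ITGAX was -0.04 without control replicate 2 and -0.02 without KO replicate 1, and ITGA9 was -0.02 without control replicate 1 and -0.18 without KO replicate 2. Of the partners, CD151 was -0.15 without control replicate 1. DAG1 was -0.03 with upper-quartile normalization, -0.01 with at least 10 counts in every library or protein-coding genes only, -0.04 without control replicate 1, -0.02 without KO replicate 1 and -0.00 without KO replicate 2. The causes were not tested. With each library left out, the share differences stayed between 2.57 and 2.69 percentage points for ITGB3, between -22.6 and -19.6 for ITGA11 and between -2.49 and -2.23 for LAMA4. Depth limits ITGA9, ITGAX, LAMB4 and the untested chains.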
